A study of Mus musculus with 10 samples.

Results

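The step from 12 h to 24 h in estradiol was followed in the open chromatin of G1E-ER4 cells, as the regions that had an ATAC-seq peak in both libraries of one time point and in neither library of the other. The 4 peak lists of 12 h and 24 h were cut to the size of the smallest, 10697 peaks, by the score that ranks peaks inside a list, and the summits on chromosomes 1 to 19 and X were extended by 250 bp on each side and merged into 16419 regions. Of these regions, 308 (1.88%) were in both 24 h lists and neither 12 h list and are called gained, and 405 (2.47%) were in both 12 h lists and neither 24 h list and are called lost. The 713 regions are described here, beside the 5914 regions present in all 4 lists, which are called stable.

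G1E-ER4 is a subclone of the mouse erythroid line G1E, which lacks Gata1, and it carries a constitutive transgene for GATA1 fused to the ligand-binding domain of the estrogen receptor. The 12 h and 24 h cells were treated with β-estradiol at 1e-07 M, the untreated 0 h cells carry the same deletion and transgene, and all cells grew in medium with serum, stem cell factor and erythropoietin. The series has 10 libraries, 2 at each of 0, 2, 6, 12 and 24 h, from about 50000 cells each. The labels number the replicates 1 and 2 at each time point. The study describes 2 independent experiments over the time points. It does not say whether libraries with the same number come from the same experiment. The p-values given here treat each library as a unit and cover only the spread between these libraries.

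GATA1 is the transcription factor that drives the last stages of red cell development. It binds the sequence AGATAA or TGATAA, often in a complex with TAL1, LMO2 and LDB1, and it displaces GATA2 from many sites as progenitors mature. Maturation ends with cell cycle exit, hemoglobin synthesis, loss of mitochondria and a condensed nucleus.

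Sequences of lost and gained regions with a GATA match are shown first, so they do not show how often each set held one. They are among the highest ranked lost and gained regions over 1 kb from a start of a protein-coding gene that held a GATA match, and 3 regions at genes of the red cell and mast cell programs, Il1rl1, Foxo3 and Bach1, that were chosen after their values were seen. Each line gives the bases 100 bp on either side of the mean summit on the plus strand of mm10, with the GATA matches in capitals, which read as reverse complements where they lie on the minus strand. Fem1b, the gained region that the order would place after Slc38a10, overlaps an annotated UTR and is not printed.
Nova1, lost, chr12:46405802-46406002: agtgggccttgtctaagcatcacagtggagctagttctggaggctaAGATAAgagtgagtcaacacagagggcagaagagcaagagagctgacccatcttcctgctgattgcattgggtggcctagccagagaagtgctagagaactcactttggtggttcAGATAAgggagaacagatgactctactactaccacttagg
Lpcat3, lost, chr6:124683695-124683895: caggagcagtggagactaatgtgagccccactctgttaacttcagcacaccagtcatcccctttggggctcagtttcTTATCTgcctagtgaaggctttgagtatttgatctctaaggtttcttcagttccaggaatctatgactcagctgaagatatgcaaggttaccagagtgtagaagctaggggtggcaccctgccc
Dpp4, lost, chr2:62391008-62391208: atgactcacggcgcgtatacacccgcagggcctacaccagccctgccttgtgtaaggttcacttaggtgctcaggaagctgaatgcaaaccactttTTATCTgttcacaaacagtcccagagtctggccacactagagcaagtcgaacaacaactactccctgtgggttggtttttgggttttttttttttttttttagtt
Il1rl1, lost, chr1:40429299-40429499: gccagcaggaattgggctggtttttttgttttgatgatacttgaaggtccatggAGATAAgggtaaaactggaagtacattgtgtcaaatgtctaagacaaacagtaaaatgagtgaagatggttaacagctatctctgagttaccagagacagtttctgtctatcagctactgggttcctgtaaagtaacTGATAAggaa
Slc38a10, gained, chr11:120136896-120137096: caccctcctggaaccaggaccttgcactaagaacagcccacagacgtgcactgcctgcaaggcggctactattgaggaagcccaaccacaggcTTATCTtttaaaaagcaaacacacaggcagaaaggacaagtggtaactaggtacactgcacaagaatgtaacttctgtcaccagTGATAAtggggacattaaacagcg
Gm10260, gained, chr13:97743414-97743614: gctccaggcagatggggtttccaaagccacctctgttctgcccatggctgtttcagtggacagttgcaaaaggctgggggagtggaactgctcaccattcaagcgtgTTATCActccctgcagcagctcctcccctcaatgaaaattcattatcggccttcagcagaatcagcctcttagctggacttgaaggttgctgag
Creb3l3, gained, chr10:81095393-81095593: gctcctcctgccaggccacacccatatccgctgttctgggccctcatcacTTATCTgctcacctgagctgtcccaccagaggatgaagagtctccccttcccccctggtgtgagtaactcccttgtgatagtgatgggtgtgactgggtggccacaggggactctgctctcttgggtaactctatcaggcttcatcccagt
Foxo3, gained, chr10:42265158-42265358: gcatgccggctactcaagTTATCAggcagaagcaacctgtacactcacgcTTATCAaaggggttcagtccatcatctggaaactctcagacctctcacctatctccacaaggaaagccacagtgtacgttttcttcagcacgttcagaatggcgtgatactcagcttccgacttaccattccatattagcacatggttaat
Bach1, gained, chr16:87706017-87706217: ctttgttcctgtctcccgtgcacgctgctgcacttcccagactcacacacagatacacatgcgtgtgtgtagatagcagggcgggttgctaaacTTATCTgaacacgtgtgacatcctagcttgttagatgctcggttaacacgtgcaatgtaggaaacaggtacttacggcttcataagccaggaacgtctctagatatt

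The Nova1, Slc38a10, Gm10260 and Foxo3 windows also held the spaced arrangement in which CTG lies 7 or 8 bases before the GATA sequence, the form bound by TAL1 and GATA1 together. These composites read CTGGAGGCTAAGATAA at Nova1, CTGTCACCAGTGATAA at Slc38a10, CTGCAGGGAGTGATAA at Gm10260 and CTGAACCCCTTTGATAA at Foxo3. The windows of the lost regions at Lpcat3 and Dpp4 each held 1 GATA match and no composite.

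Gained and lost regions were few beside the regions that the lists shared or that a single list held. Of the 16419 regions, 5914 (36.0%) were in all 4 lists, 2507 in exactly 3, 2858 in exactly 2 and 5140 in 1. The pairs of lists that share a replicate number held 698 regions (both replicate 1 lists) and 787 regions (both replicate 2 lists). The mixed pairs, which differ in time point and replicate number, held 334 and 326. The counts of 308 gained and 405 lost regions, from the same-time pairs, thus lay below those of the same-numbered pairs. The gained count was near those of the mixed pairs, and the lost count was above them. The share of regions in either list that both lists had was 0.563 for the 12 h lists, 0.552 for the 24 h lists, 0.567 for the replicate 1 lists and 0.641 for the replicate 2 lists. The difference between the replicate numbers was also seen in the promoter share of the lists, 59.0% and 60.0% in replicate 1 against 65.5% and 66.1% in replicate 2 at 12 h and 24 h.

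Most members had modest peaks. The median rank of gained regions was 7710 and 8243 of 10697 in the 24 h lists, and the median rank of lost regions was 7955 and 8189 in the 12 h lists. The lowest ranked members just inside the equal-size lists stood at 10606 and 10693 for gained and at 10694 and 10697 for lost regions. Equal ranks did not mean equal scores. The score at the cut was 1.31 in 24 h replicate 2, beside 4.4 in 24 h replicate 1 and 4.34 and 4.46 at 12 h. Gained regions reached down to a score of 1.4 in 24 h replicate 2, and lost regions to 4.34 and 4.46 in the 12 h lists. The part of this in the differences between the sets was not tested. Below the equal size the whole lists go on, and gained regions were found there from rank 10730 in 12 h replicate 1 and 10702 in 12 h replicate 2, and lost regions from rank 10730 in 24 h replicate 1. In the whole lists, 134 of the 308 gained regions were called in 12 h replicate 1, 117 in 12 h replicate 2, 58 in both and 115 (37.3%) in neither. Of the 405 lost regions, 172 were called lower down in 24 h replicate 1. The other 233 (57.5%) were in neither whole 24 h list, but the list of 24 h replicate 2 is the smallest and has nothing below its own end, so the lost regions had only 1 list in which a weaker peak could be seen.

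Lost regions had been open earlier more often than gained regions. This was read in the 6 libraries of 0, 2 and 6 h, which took no part in choosing the members, cut to the same 10697 peaks. The share of lost regions listed, replicate 1 before replicate 2, was 54.1% and 53.3% in the 0 h libraries, 52.8% and 52.1% in those of 2 h, and 50.9% and 53.6% in those of 6 h. The share of gained regions was 32.5% in each 0 h library, 39.0% and 36.0% in those of 2 h, and 40.3% and 38.3% in those of 6 h. The lowest share of lost regions was thus above the highest share of gained regions. For comparison, all 16419 regions were listed in 57% to 61% and the stable regions in 92.1% to 96.2%. The mean was 52.8% ± 1.16 (SD, n = 6) for lost and 36.4% ± 3.35 (SD, n = 6) for gained regions, a difference of 16.4 ± 4.20 percentage points that was positive in 6 of 6 libraries (exact permutation test by sign flips, two-sided, p = 0.0312, the smallest that 6 libraries allow).

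Distal regions, those over 1 kb from a protein-coding start, showed a larger difference than promoters. Distal lost regions (n = 286) were listed in 51.0% to 55.2% of cases in the 6 earlier libraries and distal gained regions (n = 187) in 21.4% to 31.6%, while all 8036 distal regions were listed in 36.7% to 41.1%. The distal difference was 25.7 ± 4.58 percentage points, higher for lost in 6 of 6 libraries (exact permutation p = 0.0312, two-sided). Promoter regions, 119 lost and 121 gained, were listed in 52.7% ± 3.93 and 50.7% ± 6.37 (SD, n = 6), which differed by 1.97 ± 5 points with lost higher in 4 of 6 libraries (exact permutation p = 0.344). The distal exceeded the promoter difference by 23.7 ± 4.60 points (SD, n = 6; 15.0 to 27.6), in 6 of 6 libraries (exact permutation p = 0.0312), a comparison chosen after the data were seen. Among regions absent from the whole lists of the other time point, 233 lost and 115 gained, the shares were 48.0% ± 2.14 and 23.3% ± 4.84 (SD, n = 6). The difference depends on asking for 2 lists at each time point: it was -15.6 points without 12 h replicate 1 and -35.4 points without 12 h replicate 2, where a lost region needs only 1 list, and 40.5 and 48.4 points without 24 h replicate 1 or 2, where a gained region needs only 1. Each of these differences, in either direction, had the same exact permutation p of 0.0312. The p thus covers the libraries for 1 fixed pair of sets and not how the sets were chosen.

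**Figure D1:**
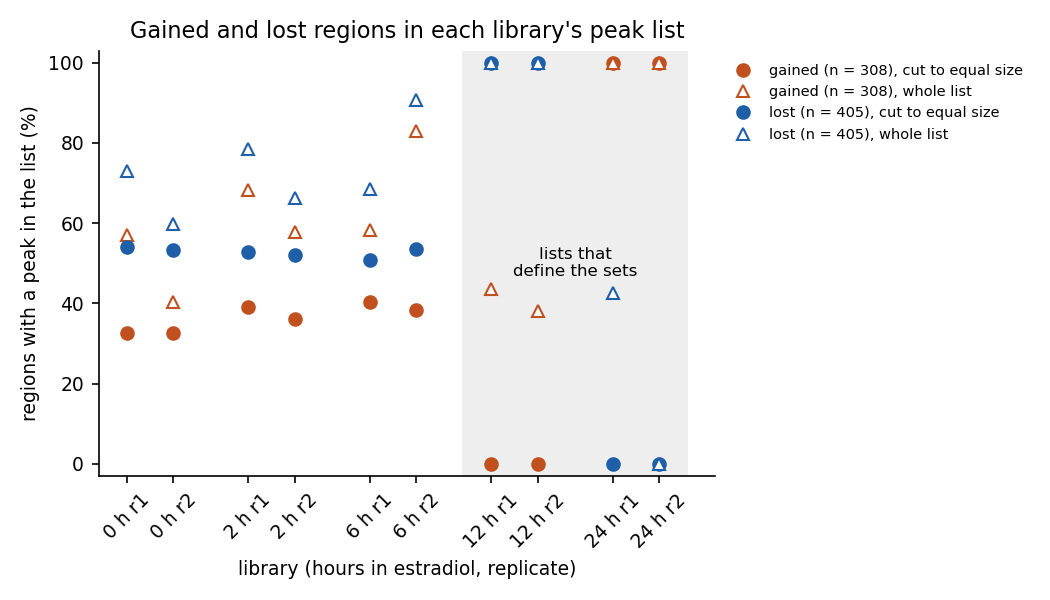
Share of the 308 gained (orange) and 405 lost (blue) regions that have a peak in each of the 10 libraries, in lists cut to 10697 peaks (filled circles) and in whole lists (open triangles). In the 6 libraries of 0, 2 and 6 h the filled blue circles lie at 50.9% to 54.1% and the filled orange circles at 32.5% to 40.3%; the grey area marks the lists that define the sets.

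Few regions were open at 24 h alone or at 12 h alone. Of the gained regions, 62 were in none of the 6 earlier equal-size lists and 6 were in all of them, whereas of the lost regions 39 were in none and 43 in all. In whole lists, 9 gained regions were listed at no time but 24 h, and 4 lost regions at no time but 12 h. In every library up to 12 h and in neither at 24 h, 51 lost regions were listed. In all 6 earlier libraries and in neither at 12 h, 3 gained regions were listed. The list of 24 h replicate 2 ends at the equal size, so a weaker peak at 24 h could be seen in replicate 1 alone. The 9 regions were all distal, and 1 of them held a GATA match. Of the 51 regions, 5 were promoters, and 36 of the 46 distal ones (78.3%) held a GATA match. The sets of 9 and 51 regions are the ends of the range and were singled out after their values were seen.

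Both sets were poorer in promoters than the stable regions. Promoters made up 39.3% of gained, 29.4% of lost, 77.2% of stable and 51.1% of all regions. Introns held 32.5% of gained and 35.6% of lost regions, against 10.3% of stable and 24.5% of all regions. Intergenic sequence held 23.1% of gained and 33.1% of lost regions, against 11.3% of stable and 22.1% of all regions. The gained intergenic share was thus near that of all regions. Exons outside promoters held 16 gained (5.19%) and 8 lost regions (1.98%), against 1.22% of stable and 2.36% of all regions. The median distance to a start was 5.87 kb for gained, 11.7 kb for lost, 0.108 kb for stable and 0.809 kb for all regions. The promoter share of lost regions was 9.90 points below that of gained regions. Within single replicate numbers that difference was -3.73 points in replicate 1 and -0.731 in replicate 2, and it turned to 6.71 and 29.2 points without 24 h replicate 1 or 2, so its direction was not settled.

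GATA sequences were more frequent in lost than in gained regions. Within 100 bp of the mean summit, AGATAA or TGATAA on either strand was found in 169 of 405 lost regions (41.7%) and 79 of 308 gained regions (25.6%), against 13.8% of stable and 22.2% of all regions. Among distal regions the match was in 160 of 286 lost (55.9%), 75 of 187 gained (40.1%), 44.9% of stable and 39.5% of all regions. The gained distal regions were thus near the share of all distal regions, and the lost distal regions were above it. Promoters rarely held the match, in 9 of 119 lost and 4 of 121 gained regions. At least 2 matches were found in 17.5% of distal lost, 10.7% of distal gained and 15.2% of distal stable regions. Regions are not replicates and no test was made of these shares. Within replicate numbers, where each set needs 1 list at each time point, the lost minus gained difference was 8.28 points in replicate 1 and 5.63 in replicate 2 over all regions, and 10.5 and 8.37 points over distal regions (mean 9.42 ± 1.49, SD, n = 2). Leaving out 1 of the 4 libraries gave 4.92 to 16.4 points, the lowest without 24 h replicate 2.

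The matches gathered at the summits. Distal lost regions had 3.97 matches per kb within 100 bp of the mean summit and 1.14 per kb at 200 to 500 bp, a ratio of 3.49. Distal gained regions had 2.57 and 1.05 per kb, a ratio of 2.44, and distal stable regions had 3.11 and 0.956 per kb, a ratio of 3.25. The flanks of the 3 sets were thus close to each other, and the sets were apart at the summit. The highest bin of 50 bp held 5.45 matches per kb in lost, 3.96 in stable and 2.78 in gained regions, in each case the bin just to the right of the mean summit.

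**Figure D2:**
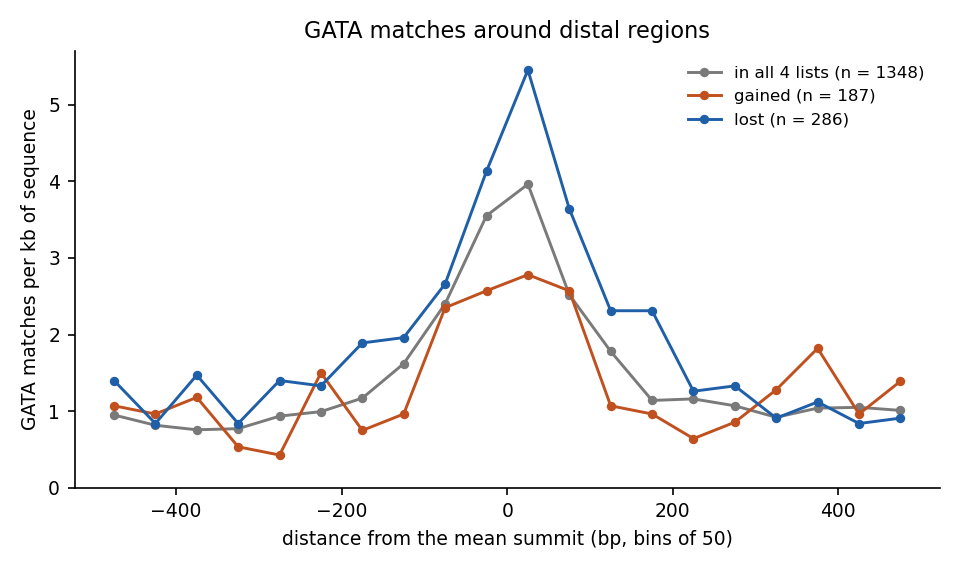
GATA matches per kb of sequence, either strand, in bins of 50 bp around the mean summit of distal lost (blue, n = 286), gained (orange, n = 187) and stable (grey, n = 1348) regions. The lost regions reach 5.45 per kb next to the summit and the gained regions 2.78, and all 3 lie between 0.428 and 1.82 per kb beyond 200 bp.

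Among lost distal regions, those listed in most of the earlier libraries held GATA most often. The match was in 28 of 67 (41.8%) of those listed in 0 or 1 of the 6 earlier equal-size lists, 72 of 138 (52.2%) of those in 2 to 4 lists and 60 of 81 (74.1%) of those in 5 or 6. For gained distal regions the shares were 38.6% (n = 101), 41.1% (n = 73) and 46.2% (n = 13). In the other direction, distal lost regions with a GATA match were listed in 59.7% ± 2.79 of cases at 0, 2 and 6 h and those without in 44.2% ± 2.34 (SD, n = 6), while distal gained regions with and without the match were listed in 28.0% ± 7.40 and 26.6% ± 2.61.

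In percentage points, the other motifs differed less between the sets. GATA was also the most frequent of the motifs in distal lost and gained regions. Relative to their own shares, some rarer motifs differed more, among them the NFE2 and AP-1 core and the CTCF core. In distal regions the TAL1-GATA composite was found in 12.9% of lost, 9.09% of gained, 13.1% of stable and 8.96% of all regions. The ETS core (CGGAAG or AGGAAG), read by factors such as PU.1 and FLI1, was in 38.8% of lost and 28.3% of gained regions, with 35.1% of all distal regions between them. The NFE2 and AP-1 core (TGANTCA) was in 29 of 286 lost (10.1%) and 11 of 187 gained regions (5.88%). It was in 8.09% of stable and 8.45% of all distal regions. On the other side were the KLF box (CCACCC), in 19.2% of lost and 25.7% of gained regions, and the CTCF core (CCNNNAGGNGGC), in 5.24% of lost and 9.09% of gained regions, against 21.3% and 8.10% of all distal regions. RUNX (TGTGGT) was in 24.1% and 23.5%, MYB (CAACTG or TAACTG) in 21.7% and 21.4%, the E-box (CAGCTG or CAGATG) in 30.1% and 25.1%, and C/EBP (TTGCNNAA) in 6.29% and 6.95% of lost and gained regions. The shares of all distal regions, in the same order, were 20.8%, 20.8%, 30.7% and 7.57%. A match counts letters on either strand, and the composite contains the GATA sequence. The mean GC content of distal regions was 50.0% in lost, 51.5% in gained, 54.2% in stable and 51.1% in all regions, and the part of GC content in these shares was not tested.

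**Figure D3:**
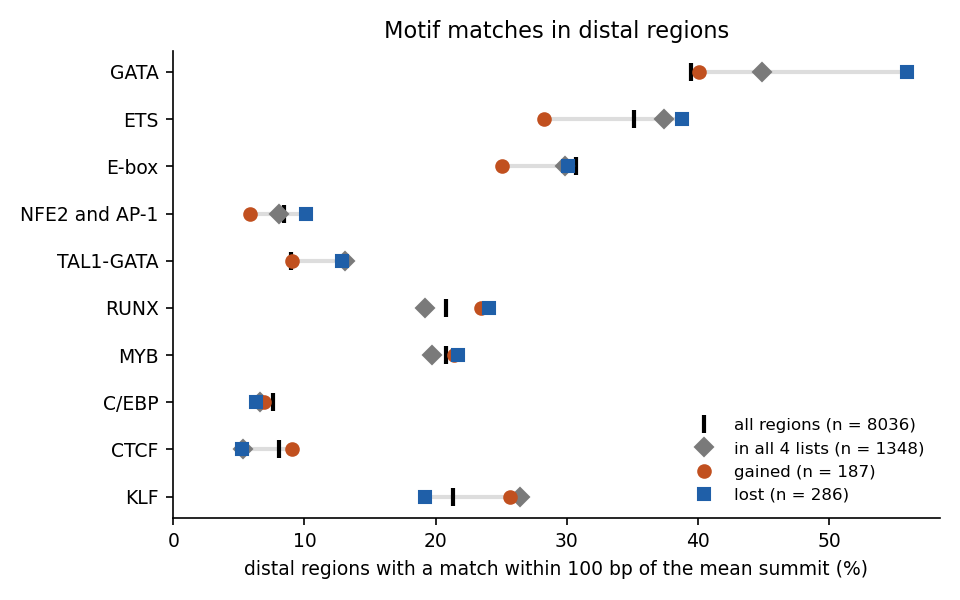
Share of distal regions with each motif within 100 bp of the mean summit in lost (blue squares), gained (orange circles), stable (grey diamonds) and all (black bars) regions. In percentage points GATA shows the widest gap, 55.9% of lost and 40.1% of gained regions, and RUNX, MYB and C/EBP the narrowest.

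In the lists as a whole, which are the lists that define the members, the GATA share of distal peaks was lower at 24 h than at 12 h. In lists cut to 10697 peaks, GATA was found at 41.0% and 44.8% of distal peaks at 12 h and at 36.3% and 40.5% at 24 h (replicates 1 and 2). The 24 h values lay below the 12 h values, by 4.63 points in replicate 1 and 4.34 in replicate 2, with means of 42.9% ± 2.75 and 38.4% ± 2.96 (SD, n = 2; exact permutation p = 0.333, two-sided, the smallest that 2 against 2 libraries allow). The earlier means were 49.3% ± 2.23 at 0 h, 48.0% ± 3.36 at 2 h and 44.8% ± 5.83 at 6 h (SD, n = 2). Over all peaks the share was 19.4% ± 1.03 at 12 h and 17.4% ± 0.641 at 24 h (SD, n = 2; exact permutation p = 0.333). At promoter peaks it was 5.26% ± 0.566 and 5.25% ± 0.485 (SD, n = 2; exact permutation p = 1). Promoters held 62.2% ± 4.56 of peaks at 12 h and 63.0% ± 4.31 at 24 h (SD, n = 2; exact permutation p = 0.667), and the difference of 0.795 points turned to -2.43 without 12 h replicate 1 and -2.25 without 24 h replicate 2.

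**Figure D4:**
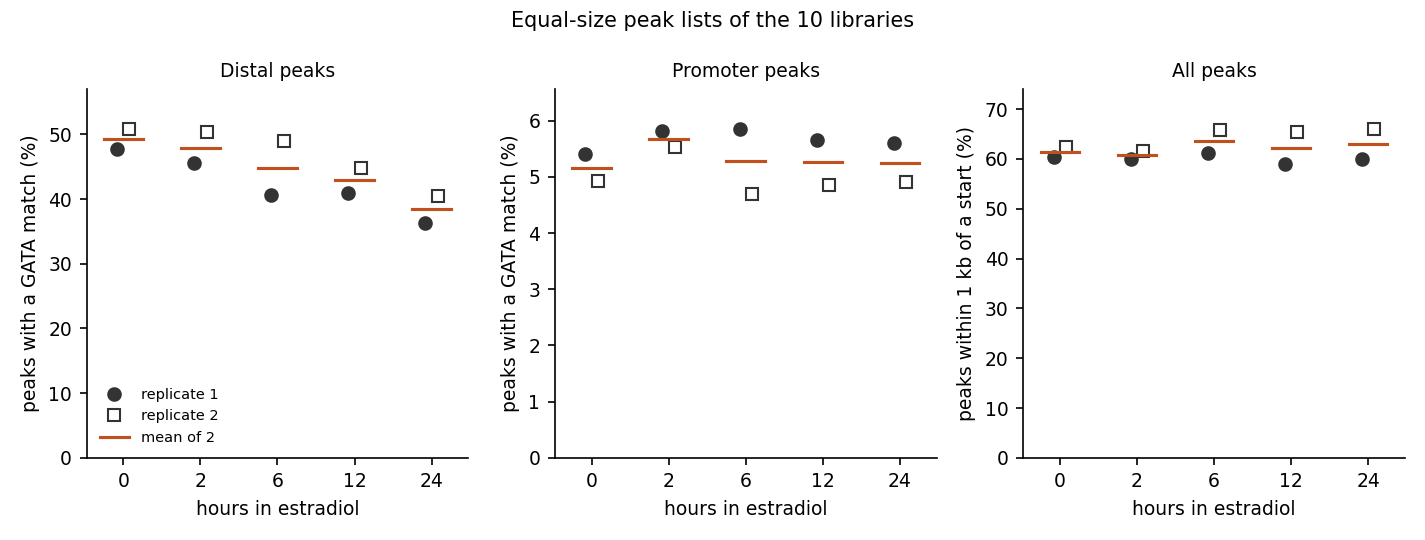
Share of distal peaks and of promoter peaks with a GATA match, and share of peaks within 1 kb of a start, in each library cut to 10697 peaks, against hours in estradiol (filled circles replicate 1, open squares replicate 2, orange bars the mean of 2). At distal peaks the mean goes from 49.3% at 0 h to 42.9% at 12 h and 38.4% at 24 h, with replicate 2 above replicate 1 at every time point.

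The 15 gained regions with the best mean rank at 24 h were 7 promoters and 8 distal regions. Of the 15, 3 held a GATA match, 5 were in all 6 earlier whole lists, and 7 were absent from both whole 12 h lists. Over all gained regions these shares were 25.6%, 15.9% and 37.3%. The first was at the promoter of Crlf2, a receptor chain for the cytokine TSLP, 436 bp from the start (chr5:109558221-109558780). Its peak ranked 2683 and 2283 at 0 h, 4046 and 4496 at 2 h, was not called in the 4 libraries of 6 h and 12 h, and ranked 1449 and 3927 at 24 h. A summit of the 12 h lists lay 704 bp away, outside the merged region. The second, beside the predicted gene Gm10719 (chr9:3018113-3018614), had 89.6% of its bases marked as repeat, and its rank of 2626 and 3141 at 24 h is uncertain for that reason.

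The promoter of Gins3, a subunit of the GINS complex of the replication fork (chr8:95633177-95633769), ranked 3701 and 2750 at 24 h and was in neither whole 12 h list, though it was called in all 6 earlier libraries, at 8640 and 5505 at 6 h. The promoter of Cdk9, the kinase that releases paused RNA polymerase II (chr2:32712681-32713183), ranked 1779 and 7725 at 24 h and was called earlier in 3 libraries, at 8246 in 0 h replicate 2, 9654 in 2 h replicate 1 and 3189 in 6 h replicate 1, and not at 12 h. A 12 h summit lay 519 bp away. Both promoters were thus open in some of the earlier libraries.

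The 15 also included 2 distal regions with no peak at 0, 2 or 6 h. An intron region of Fryl (chr5:73141671-73142228) was in no library up to 6 h, ranked 11795 in 12 h replicate 2 and 4402 and 2709 at 24 h, and 67.7% of its bases were marked as repeat. An intron region of Ccdc6 (chr10:70127139-70127683), 30.3 kb from the start, was in no list but those of 24 h, where it ranked 3453 and 5301. Neither held a GATA match. The intron region of Slc38a10, a member of an amino acid transporter family, held 2 GATA matches and a composite. It ranked 14433 in 0 h replicate 1, 8946 and 10049 at 2 h, 9571 and 13891 at 6 h, was absent at 12 h, and ranked 2001 and 5722 at 24 h.

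The 15 lost regions with the best mean rank at 12 h were 5 promoters and 10 distal regions, and 8 of the 15 held a GATA match. Of these 15, 9 were in all 6 earlier whole lists and 12 were still called in the whole list of 24 h replicate 1, below the equal size. Over all lost regions, 41.7% held a GATA match, 31.1% were in all 6 earlier whole lists and 42.5% were still called there. The first lay 413 kb from its nearest start, that of the neuronal splicing factor Nova1 (chr12:46405612-46406192), with the 2 GATA matches and composite shown above. It ranked 364 and 1036 in the untreated libraries, 450 and 3258 at 2 h, then 4959 and 1959 (6 h) before the 12 h ranks of 2617 and 3240, and it stood at 12668 in 24 h replicate 1, with no peak in 24 h replicate 2. Its best ranks were thus those of 0 h and 2 h replicate 1, and its lowest that of 24 h.

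Most of the other leading lost regions were listed from 0 h on. The intron region of Lpcat3, an enzyme of phospholipid remodelling (chr6:124683543-124684047), ranked between 1717 and 10673 in the 6 earlier libraries, 2296 and 5254 at 12 h and 11667 in 24 h replicate 1. The intron region of Dpp4, the cell-surface peptidase CD26 (chr2:62390752-62391463), ranked between 2445 and 10448 in the 6 earlier libraries, 2989 and 4777 at 12 h and 14033 in 24 h replicate 1. The promoter of Rraga, a GTPase that signals amino acid supply to mTORC1 (chr4:86575308-86575849), was called in 3 of the 6 earlier libraries and not at 0 h, ranked 4605 and 4468 at 12 h and was in neither 24 h list. It held no GATA match.

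**Figure D5:**
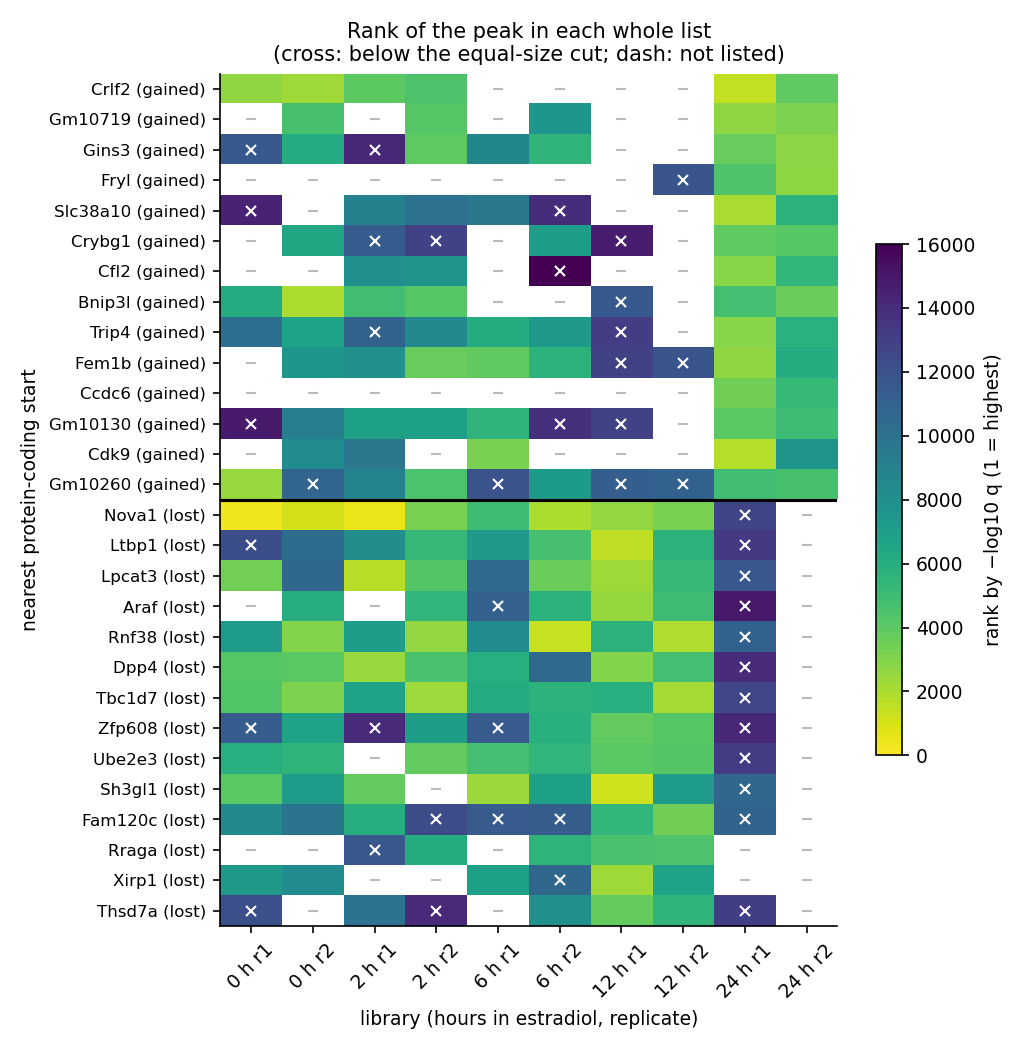
Rank of the peak in each of the 10 whole lists for 14 of the 15 gained and 14 of the 15 lost regions with the best mean rank (yellow high, dark low; cross, below rank 10697; dash, not listed). The lost regions are mostly filled up to 12 h and 12 of these 14 carry a cross in 24 h replicate 1, while the gained regions are often listed at 0 h to 6 h, and Ccdc6 in neither 12 h list nor earlier.

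The gene lists had few members each, and their counts are given beside the shares of the regions near any start and without a test. Of 80 regions whose nearest start within 100 kb is of 1 of 24 erythroid transcription factor genes, 4 (5%) were gained and 0 lost, beside 1.87% gained and 2.41% lost of the 15753 regions within 100 kb of any start, the shares to set beside each count that follows. The 4 lay at Foxo3, which drives maturation and the antioxidant response, Bach1, a repressor that heme inactivates, Lmo2 and Tal1, both partners of GATA1. The intron region of Foxo3 (chr10:42264973-42265542) with 2 GATA matches ranked 9412 in 2 h replicate 1 and 10568 in 6 h replicate 2, was absent from both 12 h lists and ranked 8077 and 8194 at 24 h. The intron region of Bach1 (chr16:87705816-87706418) with 1 GATA match ranked 8916 in 0 h replicate 2, 10992 in 2 h replicate 2, 9919 in 6 h replicate 2 and 13350 in 12 h replicate 2, and 7162 and 7675 at 24 h. It was thus called before 24 h in replicate 2 libraries alone.

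The other regions of that list were weaker. The Lmo2 promoter region, 0.625 kb upstream of the start (chr2:103969236-103969771), ranked 10286 and 6291 at 24 h. The Tal1 region 8.25 kb upstream of the start (chr4:115047693-115048665) ranked 10363 and 10403 at 24 h, last of all gained regions, and was called at 9789 in 0 h replicate 2, 9466 in 2 h replicate 1, and 11169 and 11054 at 6 h. Neither held a GATA match. At the heme synthesis genes 1 of 24 regions was gained and 0 were lost. None of the 6 regions at globin genes was a member.

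The lists of iron handling and of the red cell membrane had 2 lost and 0 gained regions each. The list of 15 iron handling genes leaves out Tfr2, whose promoter was gained. Of the 32 regions of that list, 2 were lost (6.25%, beside 2.41% of those near any start). They lay in introns of Aco1, the iron regulatory protein 1 (chr4:40178499-40179032), and of Steap3, the ferrireductase of endosomes (chr1:120231293-120231882), and each held 1 GATA match. The Steap3 region ranked between 5369 and 12085 in the 6 earlier lists and 5578 and 8675 at 12 h, and was in neither 24 h list. The Aco1 region ranked 1841 and 9296 at 12 h and 12599 in 24 h replicate 1. Of 60 regions of the list of the red cell membrane and skeleton, 2 were lost (3.33%, near the 2.41% of those near any start), the promoters of Icam4, the LW blood group antigen, which ranked 5465 and 7852 at 12 h and 12102 in 24 h replicate 1, and Cd24a, which ranked 10122 and 9422 at 12 h.

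Il1rl1 encodes ST2, the receptor for interleukin 33 on mast cells, and held both lost regions of the mast cell and basophil list, a list of 25 genes that leaves out Mcpt1. Of its 23 regions 2 were lost (8.70%) and 0 gained, beside 2.41% and 1.87% of those near any start. The promoter region 0.171 kb upstream of the start (chr1:40429129-40429669), with 2 GATA matches, ranked 951 and 1468 at 0 h, 8772 and 3773 at 2 h, was absent and 3644 at 6 h, and ranked 10605 and 3635 at 12 h. It was in neither 24 h list. The second region, 49.2 kb upstream (chr1:40380067-40380621), was not called at 0 h, ranked 5549 and 7144 at 2 h, 5293 and 7942 in the 6 h libraries, 10530 and 5941 at 12 h and 11331 in 24 h replicate 1, and held no GATA match. The promoter peak was thus among the highest at 0 h and below the list at 24 h, and the upstream peak was first called at 2 h.

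Few of the genes captured by the study had members. Of 46 regions at genes whose promoters the study captured as activated by GATA1, 2 were gained, at Bach1 and Spns2, a sphingosine 1-phosphate transporter, and 0 lost (4.35% gained, beside 1.87% of those near any start). Of 31 regions at the genes captured as repressed, 3 were lost, the 2 at Il1rl1 and the promoter of the lectin gene Clec10a (chr11:70166098-70166703), and 0 were gained (9.68% lost, beside 2.41% of those near any start). The study chose these genes for their expression in the same cells, so the lists are not independent evidence of their direction. The Clec10a promoter, with 1 GATA match, ranked 6172 and 8775 at 12 h and 11917 in 24 h replicate 1. The Spns2 intron region (chr11:72482024-72482599) was called in no library up to 2 h, ranked 9163 and 13604 at 6 h, then 10889 and 12930 (12 h), and reached 8210 and 9303 in the 24 h lists.

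Of 55 regions of the cell cycle list, 2 were gained and 2 lost (3.64% each, beside 1.87% gained and 2.41% lost of those near any start). The gained were the promoters of Cdk2, the kinase of S phase entry, and Rbl2, the pocket protein p130 of resting cells, and the lost were the promoter of Cdkn1b, the inhibitor p27, and a region near Cdc6, which licenses replication origins. The Cdk2 region ranked 6639 and 10659 at 24 h, the second just inside the equal size. It was called earlier at 9281 in 0 h replicate 1 and 9884 in 6 h replicate 2, and not at 12 h. A 12 h summit lay 563 bp from the Cdk2 region. The Rbl2 promoter was called in all 10 whole lists, with ranks of 13401 and 10963 at 12 h that became 4494 and 10645 at 24 h. The Cdkn1b promoter ranked 7505 and 6203 at 12 h and 10782 in 24 h replicate 1, just below the equal size. The Cdc6 region ranked 9673 and 6181 at 12 h and was in neither 24 h list.

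The promoter of Bnip3l, a receptor that marks mitochondria for removal in maturing red cells, held a gained and a lost region side by side. The lost region (chr14:67008726-67009244) ranked 9914 and 2516 at 12 h and was in neither whole 24 h list. The gained region (chr14:67008168-67008724) ranked 11579 in 12 h replicate 1, was absent from 12 h replicate 2 and ranked 4770 and 3634 at 24 h. The mean summits were 539 bp apart, with the lost region 0.108 kb upstream and the gained region 0.410 kb downstream of the start. Each library had 1 summit at this promoter except 12 h replicate 1, which had 2. On chromosome 14 the 0 h summits lay at bases 67008519 and 67008969, the 2 h summits at 67008640 and 67008902, and the 6 h summits at 67009023 and 67009072. The summit of 12 h replicate 2 lay at 67008976, and the 24 h summits lay at 67008418 and 67008474. The promoter was thus listed at all times, and the 24 h summits were the farthest to one side. Cited2, a coregulator that binds CBP and p300, was the only other such pair, with summits 844 bp apart.

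Such neighbours concern a minority of members. A summit of the other time point within 1 kb was found for 27 of 308 gained regions, 21 of them promoters, and for 23 of 405 lost regions, 16 of them promoters. Without these regions 281 gained and 382 lost remained, and the share listed at 0, 2 and 6 h differed by 17.6 points. The nearest gene of a gained region was also the nearest gene of a lost region at 21 genes, of 303 and 393 genes. Within 100 kb of a start there were 18 such genes, and 9852 genes had any region. Whether 21 is more or fewer than sets of this size would share was not tested. Among the remaining lists, the signalling list of erythropoietin, Kit and cytokines had 2 gained (Bnip3l and Pik3r1, a subunit of phosphoinositide 3-kinase) and 1 lost (Bnip3l) of 60 regions, and the autophagy list had 1 lost of 44, the promoter of Tfeb, a factor for lysosome genes, with a 24 h summit 603 bp away. None of the 43 regions of the progenitor and GATA2 list and none of the 15 of the megakaryocyte list was a member. Of the regions near any start, 1.87% were gained and 2.41% lost. At those shares lists of this size hold few members, so these counts say little about the genes.

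The 4 lists were checked against marker genes by a peak within 1 kb of a start. Of 9 erythroid markers with a start, 3 had such a peak in each 12 h list and 2 in each 24 h list, with Epor and Tfrc in all 4 and Gata1, Klf1, Ank1, Slc4a1 and Alas2 in none. Mast cell (8 genes) and granulocyte and monocyte markers (9 genes) had none, megakaryocyte markers had 1 of 8 in each list (Gp1ba), lymphocyte markers 1 of 9 in 12 h replicate 1 alone (Lck), and fibroblast markers 1 of 7 (Col1a1) in 12 h replicate 1 and 24 h replicate 1. The markers of other cell types were thus at or near 0 in all 4 lists, but most erythroid markers were unlisted too. The 8 mast cell markers leave out Il1rl1 and Mcpt1, which had regions in both 12 h lists. A promoter not listed is not shown to be closed, since the lists hold only called peaks and the depth of the libraries is unknown.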

How the data were processed

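The authors trimmed adaptors and aligned reads to mm10. Uniquely placed reads were kept, and peaks were called in each library alone by MACS with no fragment model. The methods name Bowtie2, the submitters' processing notes Bowtie 1.0.0, Picard and MACS2. The deposited lists give 1 bp summits with a score in −log10 of the q-value, lowest at a q-value of 0.0499. Scores are not scaled between libraries, so peaks were compared by rank. The lists of 12 h and 24 h held 10697 to 15570 peaks, and read depth is unknown, so no interval that needs it is given. No correction for the Tn5 cut is stated, which leaves summits uncertain.

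Summit windows were merged and classed in Python 3.11.15 with NumPy 2.4.6 and SciPy 1.17.1, and drawn with matplotlib 3.10.9. A library of 0, 2 or 6 h had a region when a summit window overlapped it. Starts were those of 21644 protein-coding genes of GENCODE M21 on GRCm38, the build mm10. Motifs were read in the reference within 100 bp of the mean summit of the lists that held the region. Steps were tested on simulated lists. Named regions are the 15 of each set with the best mean rank and every member nearest, within 100 kb, to a gene of 13 lists, and 3 of them are not reported here. Members, gene lists and 6 marker lists were chosen with earlier results of these data known. Ahsp had no start in the annotation used. Alternatives were list size, window, promoter distance, motif window, left-out libraries and replicate number.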

Additional observations from a re-analysis of the deposited data

How the results depend on the processing

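The lists hold only called peaks of unknown depth, and 24 h replicate 2, the smallest, sets the size of the others. With 2 libraries per time point no exact permutation p below 0.333 is possible. Gained and lost counts were 234 and 758 with all peaks, where the lists are unequal, 197 and 180 with the 5000 highest ranked, 291 to 354 and 390 to 450 with other windows, 115 and 233 for regions absent from the whole lists of the other time point (chosen after seeing the data), and 775 to 1824 and 931 to 1823 without 1 library, which relaxes 1 side of the rule. The GATA share of lost minus gained regions stayed positive, 14 points with 5000 peaks, 21.1 for regions absent from the whole lists and 4.92 to 16.4 without 1 library. The promoter share of lost minus gained regions was -2.88 with all peaks, -13.0 with 5000, -5.97 for regions absent from the whole lists and -44.0 to 29.2 without 1 library, reversed at 6.71 without 24 h replicate 1 and 29.2 without 24 h replicate 2. The share listed at 0, 2 and 6 h differed by 9.33 to 25.7 points under the other settings with all libraries, by 15.3 to 17.5 without 1 earlier library (exact permutation p = 0.0625, the smallest that 5 libraries allow) and by -35.4 to 48.4 without 1 of the 4, reversed at -15.6 and -35.4 without 12 h replicate 1 or 2, where 1 set needs 1 list and the other 2. Those reversed differences also had an exact permutation p of 0.0312. Between the lists, the promoter share reversed to -2.43 without 12 h replicate 1 and -2.25 without 24 h replicate 2 (range to 4.02), and the median distance to a start, 6.50 bp shorter at 24 h (-6.50), to 56.0 and 46.5 bp (range from -69.0).

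The replicate numbers mark no stated pairing, and over regions the replicate 1 minus replicate 2 difference at 12 h correlated with that at 24 h at 0.138, with 2 pairs. With the replicate block the counts were 308 and 405, since both rules ask for the same regions, the promoter and GATA shares of the lists differed by 0.795 and -1.96 points (exact sign flips, smallest p 0.5), and the early share by 15.4 in replicate 1 and 17.4 in replicate 2. Within the replicate 1 lists alone, 2957 regions were gained and 2958 lost, with a GATA difference of 8.28 and a promoter difference of -3.73 points, and within the replicate 2 lists 2288 and 2387, with 5.63 and -0.731 points.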

Other observations

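The members that follow lie outside the lists described above, and were chosen after their values were seen. Among the 51 lost regions that were listed in every library up to 12 h and in neither at 24 h was an intron region of Smad1, a transducer of bone morphogenetic protein signals, with 2 GATA matches and a composite (chr8:79375483-79376119). Its ranks were 3978 and 2989 in the untreated libraries, 6842 and 6283 at 2 h, then 9671 and 9287 (6 h), and 8608 and 8828 in the 12 h libraries. An intron region of Ezh2, the methyltransferase of histone H3 lysine 27 (chr6:47565601-47566201), with 1 GATA match, was in all 8 libraries up to 12 h at ranks between 5558 and 11353. A lost region with 1 GATA match lay 236 kb from the start of Myc (chr15:62222983-62223497), beyond the 100 kb used for the gene lists, and ranked 7186 and 9596 at 12 h after 3408 and 6467 at 0 h.

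An intron region of Angpt1 (chr15:42482964-42483658), which encodes a ligand of the receptor TIE2, held 3 GATA matches and a composite. It ranked 3083 and 2741 at 0 h, 4893 and 1804 at 2 h, 3599 in 6 h replicate 2, 6008 and 6669 at 12 h, and was in neither 24 h list. A region 3.45 kb from the start of the mast cell protease gene Mcpt1 (chr14:56021133-56021708), with 2 GATA matches, ranked 4052 and 7721 at 12 h and was also in neither 24 h list. On the gained side, the promoter of Tfr2, the second transferrin receptor (chr5:137569519-137570121), ranked 8556 and 9856 at 24 h and was called at 11272 in 12 h replicate 2, below the equal size.

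Members on a chromosome ranged from 1.02% (chromosome 3) to 3.28% (chromosome 5) of its regions for gained and from 1.59% (chromosome 5) to 4.20% (chromosome 18) for lost.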
